A study of Mus musculus with 6 samples.

Results

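Immediate early genes are transcribed within minutes of neuronal firing or growth factor stimulation, without the need for new protein synthesis. The group described here holds 9 regulators of that class and Arc, a synaptic protein gene with the same rapid induction. Fos, Fosb and Junb encode subunits of the AP-1 transcription factor, Egr1 to Egr4 encode zinc finger transcription factors, Nr4a1 encodes an orphan nuclear receptor, and Ier2 encodes a small nuclear protein. The 10 genes were taken by name, and every probe set annotated to exactly 1 of their symbols was read. This gave 12 probe sets of 45037 tested, 2 each for Egr2 and Egr3 and 1 for each of the other 8 genes. All 10 genes were measured, of 18193 genes on the array.

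The tissue was the brain without its cerebellum, from Gb5-deficient mice (Gb5ko, replicates 1 to 3) and wild-type mice (Gb5wt, replicates 4 to 6), with 3 arrays each. Gb5 is the G protein beta subunit encoded by Gnb5, which pairs with RGS proteins of the R7 family and shapes signalling through Gi- and Go-coupled receptors in neurons. The labels state that littermates were matched for age and sex, and the design text calls the 3 samples of each genotype biological replicates. The allele, the age, the sex of each animal, the strain and the handling before death are not stated in the labels. Total RNA was hybridised to 1 Affymetrix expression array per sample, and a deposited value is a log2 expression level from RMA.

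In these data Gnb5 read 3.67, 3.00 and 3.56 in Gb5ko and 8.79, 8.98 and 9.30 in Gb5wt, so the labels held for the targeted gene (difference -5.62 ± 0.193 (SE), limma adjusted p = 4.48e-06). Pearson correlations between arrays, across probe sets, lay between 0.989 and 0.996. The 8 neuronal markers averaged 12.3 to 12.4 in both groups, with 4 positive and 4 negative differences. At an unadjusted limma p under 0.05, 0 were higher and 1 lower, Snap25 (-0.33). Of 7 striatal neuron markers, 2 were higher at that level (Drd2 and Rgs9) and 1 lower (Gpr6). Of 7 cortical and hippocampal excitatory neuron markers, 0 were higher and 1 lower (Tbr1). Over all genes, 9.89% were higher and 5.68% lower, and 0 of these markers had an adjusted p under 0.05. The 9 cerebellar markers averaged 7.52 to 7.75 in Gb5ko and 7.51 to 7.61 in Gb5wt. The granule cell gene Cbln3 was dim, at 4.27 to 4.96 in Gb5ko and 3.83 to 4.34 in Gb5wt. The Purkinje cell gene Pcp2 was not, at 8.66 to 8.73 in Gb5ko and 8.51 to 8.65 in Gb5wt, and Calb1 and Cbln1, which forebrain neurons also express, read 10.6 or more on every array. The pituitary hormone genes Gh and Cga read highest on the same array of each group. Gh, for growth hormone, read 5.08, 4.67 and 10.6 in Gb5ko replicates 1 to 3 and 4.70, 4.20 and 6.21 in Gb5wt replicates 4 to 6. Sex-linked genes differed between arrays within each group. Xist read 10.7, 8.31 and 10.6 in Gb5ko replicates 1 to 3 and 4.96, 10.8 and 10.7 in Gb5wt replicates 4 to 6. The Y-linked Eif2s3y read 2.96, 11.3 and 6.97 in the same Gb5ko arrays and 11.3, 6.05 and 4.05 in the Gb5wt arrays. Gb5wt replicate 4 was thus the only array low for Xist, Gb5ko replicate 2 was high for both genes, and Gb5ko replicate 3 and Gb5wt replicate 5 had high Xist with Eif2s3y in between. How many animals each array holds cannot be told, and n counts arrays. Each array was left out in turn below.

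Immediate early genes respond to calcium and cAMP through CREB, which binds the cAMP response element (CRE), and to growth factor signals through SRF, which binds the CArG box. RefSeq promoter windows of build GRCm38.p6 were read for 6 of the genes, 250 bases upstream of each annotated start. These were Fos, Fosb, Junb, Egr2, Egr4 and Nr4a1. No window was read for Egr1, Egr3, Arc and Ier2, so the counts do not cover them. Sites farther upstream were not searched. The short form of the CRE, TGACG, searched on both strands, was present upstream of a start of 6 of 6 genes, against 19.8% of the 27025 genes in that table. The full CRE TGACGTCA, which contains the short form on both strands, was found in 0 of the 6, against 1.77% of all genes. A CArG box was found for 1 of the 6, Egr2, against 1.62% of all genes. Altogether 8 motifs were searched on both strands, and the short CRE was chosen for display after all matches had been seen. Of the other 5, the EGR site GCGGGGGCG was found in 2 of the 6 genes, Fosb and Nr4a1, against 2.93% of all genes, and the TATA box TATAAA in 1 of the 6, Fos, against 14.3%. The EGR site GCGTGGGCG, the NR4A site AAAGGTCA and the AP-1 site TGAGTCA were found in 0 of the 6, against 0.622%, 1.55% and 5.16% of all genes. A match of letters is a description and not a binding site. The 120 bases before the start are shown for the 5 genes with a single annotated start, because each holds the short CRE at least once. Capitals mark it on either strand.
Fos (chr12:85473770-85473889, + strand): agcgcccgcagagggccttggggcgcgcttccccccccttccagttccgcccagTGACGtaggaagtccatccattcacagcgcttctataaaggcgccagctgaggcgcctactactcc
Fosb (chr7:19310046-19310165, - strand): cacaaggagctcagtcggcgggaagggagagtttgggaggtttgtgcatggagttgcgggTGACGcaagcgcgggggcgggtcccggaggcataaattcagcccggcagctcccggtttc
Junb (chr8:84978749-84978868, - strand): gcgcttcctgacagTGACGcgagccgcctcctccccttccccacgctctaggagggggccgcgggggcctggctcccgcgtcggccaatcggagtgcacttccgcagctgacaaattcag
Egr4 (chr6:85513590-85513709, - strand): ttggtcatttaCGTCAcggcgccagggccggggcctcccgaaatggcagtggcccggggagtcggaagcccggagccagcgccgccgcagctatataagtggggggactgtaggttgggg
Nr4a1 (chr15:101266726-101266845, + strand): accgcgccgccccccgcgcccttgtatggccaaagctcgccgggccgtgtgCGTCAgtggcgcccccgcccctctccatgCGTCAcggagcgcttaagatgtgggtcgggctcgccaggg
Egr2 had 5 annotated starts, and the 2 CArG boxes upstream of them are shown with 10 bases on each side, the box in capitals.
Egr2 first box (chr10:67537484-67537513, + strand): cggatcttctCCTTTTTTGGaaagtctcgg
Egr2 second box (chr10:67537787-67537816, + strand): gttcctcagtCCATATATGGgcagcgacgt

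None of the 12 probe sets passed the threshold of an adjusted p under 0.05 in limma, where 0.0266% of all probe sets did. At an unadjusted p under 0.05, 4 of the 10 genes were higher in Gb5ko (Fosb, Egr4, Ier2 and Nr4a1) and 0 were lower. Over all genes, each read by its brightest probe set as here, 9.89% were higher and 5.68% lower at that level. The median difference of the 10 genes was 0.26 on the log2 scale, with 7 positive and 3 negative, and the median over all genes was 0.046. The 4 genes with an unadjusted p under 0.05 differed by 1.25-fold to 1.47-fold. That count changed with single arrays left out. It was 1 without Gb5ko replicate 1 and 2 without Gb5ko replicate 3. It was 1 without Gb5wt replicate 4 and 1 without Gb5wt replicate 5. Without Gb5ko replicate 2 it was 4, and without Gb5wt replicate 6 it was 5. The share over all genes was not computed for these fits with fewer arrays. A drop in the count can thus not be told from a drop over all genes. In whole tissue, a change in the number of cells that express a gene and a change in RNA per cell cannot be told apart.

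Markers of non-neuronal cells were also compared between the groups, with 0 past the adjusted threshold in limma. The 7 microglia markers averaged 8.68 to 8.80 in Gb5ko and 8.55 to 8.63 in Gb5wt, without overlap. Of these, 3 were higher at an unadjusted limma p under 0.05 (Aif1, Csf1r and Cx3cr1) and 0 lower. Over all genes, 9.89% were higher and 5.68% lower at that level. The 7 were not uniform, with 5 positive and 2 negative differences. P2ry12 (-0.20) had all its Gb5ko arrays below the Gb5wt arrays, where 9.01% of all genes did so, and C1qa differed by -0.082. The 3 blood cell markers averaged 4.8 to 5.1 in Gb5ko and 5.3 to 5.5 in Gb5wt, again without overlap. Singly, only the red cell anion exchanger Slc4a1 (-0.93) had all its Gb5ko arrays below the Gb5wt arrays. The groups overlapped for Alas2 (-0.25) and Hba-a1 (-0.11). At an unadjusted limma p under 0.05, 1 of the 3 was lower, Slc4a1. All 4 oligodendrocyte markers had a negative difference, 1 of them at that level, Cldn11, and their means overlapped, at 10.06 to 10.56 in Gb5ko and 10.46 to 10.80 in Gb5wt. The 5 astrocyte markers averaged 11.2 to 11.3 in Gb5ko and 11.3 to 11.5 in Gb5wt, with 1 higher (Aldh1l1) and 2 lower (Slc1a3 and Gja1). The 7 endothelial markers had 2 positive and 5 negative differences, with 0 higher and 1 lower at that level, Cdh5 (-0.27). Their means overlapped, at 6.59 to 6.72 in Gb5ko and 6.57 to 6.99 in Gb5wt. For means of such lists, the share without overlap over all genes was not computed. These markers were named after their values were seen, and the part of such cells in the immediate early gene values was not tested.

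**Figure D1:**
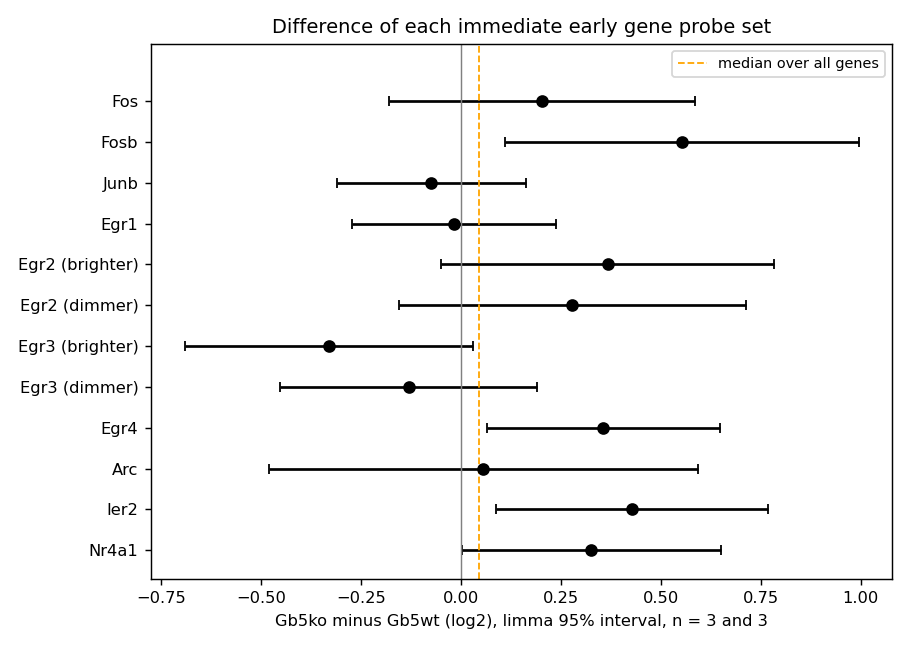
Difference of each of the 12 probe sets, Gb5ko minus Gb5wt on the log2 scale, with the 95% interval of limma over 3 and 3 arrays. The intervals of Fosb, Egr4, Ier2 and Nr4a1 lie above 0, those of the other 8 probe sets include 0, and the dashed line marks the median over all genes at 0.046.

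Among the AP-1 subunits, Fosb showed the largest difference of the 10 genes. Fosb encodes a Fos family protein whose truncated splice form accumulates with repeated stimulation, a form this probe set was not shown to tell apart. Fosb read 4.89, 4.34 and 4.57 in Gb5ko, against 4.15, 3.65 and 4.34 in Gb5wt. The groups did not overlap, but the lowest Gb5ko array lay only 0.00245 above the highest Gb5wt array. Its difference was 0.55 ± 0.195 (SE; 95% interval 0.11 to 0.99; limma adjusted p = 0.274, unadjusted p = 0.0197). With 1 array left out the difference ran from 0.35, without Gb5wt replicate 5, to 0.70, without Gb5wt replicate 6. The probe set was dim, at percentile 36.3 of all probe sets in Gb5ko and 29.4 in Gb5wt.

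Fos, the prototype immediate early gene, read 8.97, 9.24 and 9.36 in Gb5ko, against 8.88, 8.74 and 9.34 in Gb5wt. The groups overlapped, since Gb5wt replicate 6 was nearly as high as the highest Gb5ko array. Fos differed by 0.20 ± 0.170 (SE; 95% interval -0.18 to 0.59; limma adjusted p = 0.602). With 1 array left out it ran from 0.080, without Gb5wt replicate 5, to 0.38, without Gb5wt replicate 6. Junb, which encodes a Jun family partner of Fos proteins, read 4.55, 4.72 and 4.70 in Gb5ko and 4.75, 4.63 and 4.81 in Gb5wt. Its arrays overlapped and spanned only 0.26 in all, the narrowest range of the 10 genes, and the probe set was dim, so a difference may not have been visible there. The Junb difference was -0.074 (95% interval -0.31 to 0.16; limma adjusted p = 0.777), and it ran from -0.13, without Gb5wt replicate 5, to -0.021, without Gb5ko replicate 1.

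**Figure D2:**
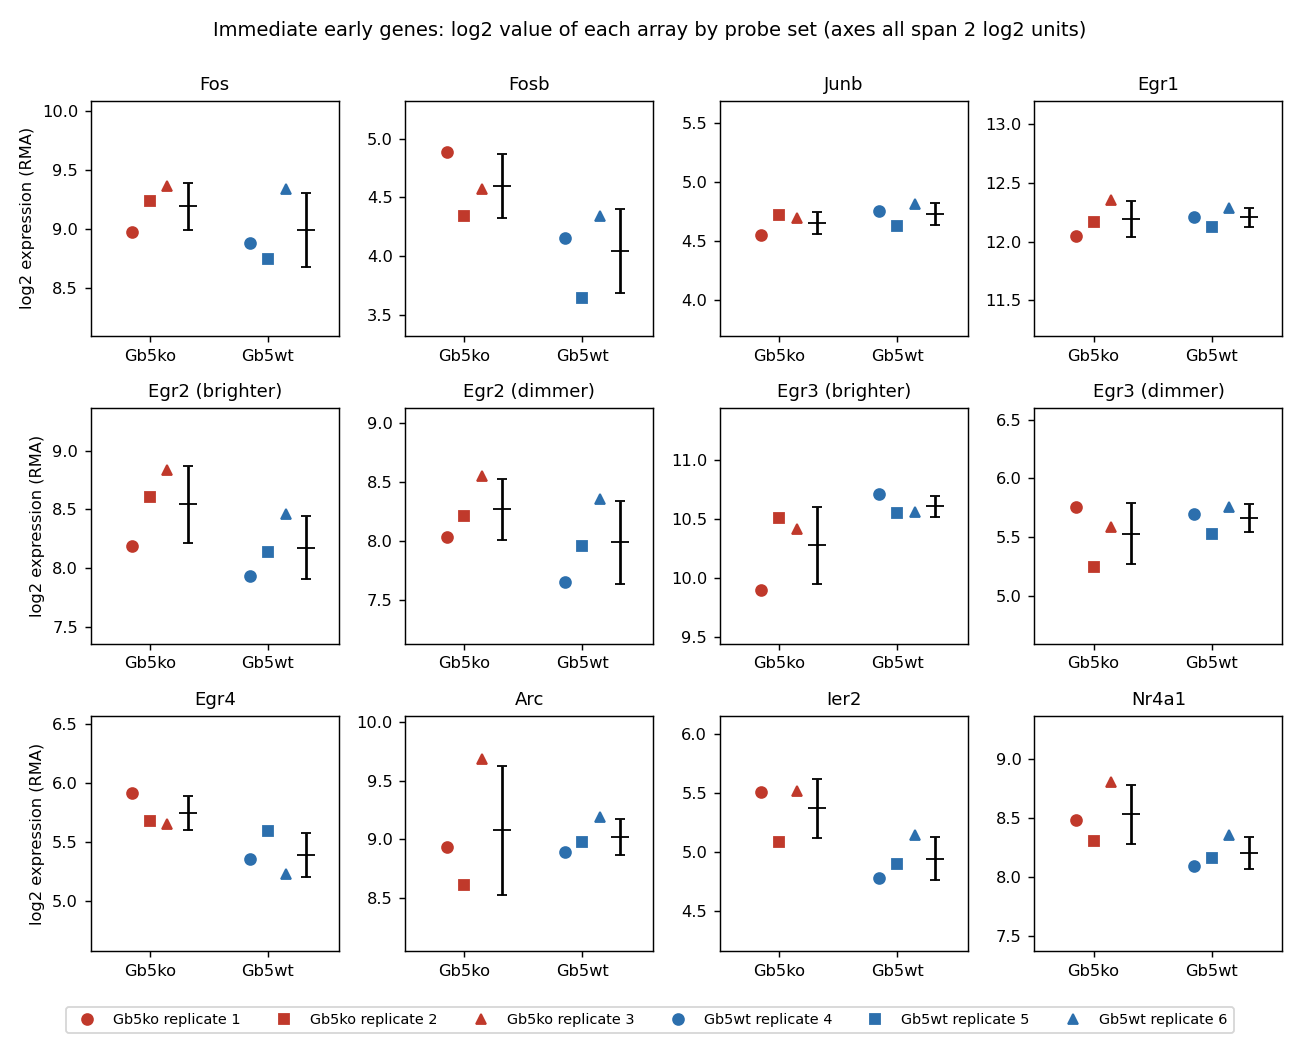
Log2 expression of each probe set on each array, with Gb5ko left and Gb5wt right in each panel. Black bars are the group mean ± SD (n = 3), and each axis spans 2 log2 units. Fosb, Egr4 and the brighter Egr3 probe set are the panels in which the groups do not overlap.

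The Egr genes, which share a zinc finger domain and a GC-rich binding site, had differences of both signs. Egr1, an abundant Egr factor of the resting forebrain, was by far the brightest of the 12 probe sets. It read 12.05, 12.17 and 12.35 in Gb5ko and 12.21, 12.12 and 12.29 in Gb5wt. The groups overlapped throughout, and the difference of -0.017 had a 95% interval of -0.27 to 0.24 (limma adjusted p = 0.959), which admits a fold from 0.828 to 1.18. Its sign changed with the setting, with values from -0.098 to 0.053 over all alternatives.

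Egr2, also known for driving myelination in Schwann cells, was read by 2 probe sets that ranked the arrays nearly alike. The brighter read 8.19, 8.60 and 8.83 in Gb5ko, against 7.93, 8.14 and 8.46 in Gb5wt. The dimmer read 8.04, 8.21 and 8.55 in Gb5ko, against 7.65, 7.96 and 8.36 in Gb5wt. On both, Gb5ko replicate 3 was the highest array and Gb5wt replicate 4 the lowest, and the groups overlapped. The differences were 0.37 ± 0.185 (SE; 95% interval -0.05 to 0.78; limma adjusted p = 0.393) and 0.28 ± 0.192 (SE; -0.16 to 0.71; limma adjusted p = 0.526). With 1 array left out the brighter ran from 0.22, without Gb5ko replicate 3, to 0.54, without Gb5ko replicate 1. The dimmer ran from 0.11, without Gb5wt replicate 4, to 0.46, without Gb5wt replicate 6.

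Egr3, known for its role in muscle spindle development, was read by 2 probe sets that ranked the arrays differently. The brighter, at percentile 90.5 in Gb5ko and 92.4 in Gb5wt, read 9.90, 10.51 and 10.42 in Gb5ko, against 10.71, 10.55 and 10.56 in Gb5wt. The groups did not overlap, with a gap of 0.037, and Gb5ko replicate 1 stood well below the rest. This was the 1 gene of the 10 whose Gb5ko arrays all lay below the Gb5wt arrays, where 9.01% of all genes did so. Its difference was -0.33 ± 0.159 (SE; 95% interval -0.69 to 0.03; limma adjusted p = 0.377), and -0.14 without Gb5ko replicate 1. The dimmer Egr3 probe set read 5.75, 5.25 and 5.59 in Gb5ko, against 5.70, 5.53 and 5.76 in Gb5wt. Here Gb5ko replicate 1 was among the highest arrays and replicate 2 was the lowest. The difference was -0.13 (95% interval -0.45 to 0.19; limma adjusted p = 0.701), and 0.010 without Gb5ko replicate 2.

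Egr4, an Egr factor enriched in the nervous system, read 5.91, 5.68 and 5.65 in Gb5ko, against 5.35, 5.59 and 5.23 in Gb5wt. The groups did not overlap, with a gap of 0.054. With Fosb this made 2 of the 10 genes whose Gb5ko arrays all lay above the Gb5wt arrays, where 16.1% of all genes did so. The Egr4 difference was 0.36 ± 0.129 (SE; 95% interval 0.06 to 0.65; limma adjusted p = 0.28, unadjusted p = 0.0221). With 1 array left out it stayed between 0.27 and 0.46.

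Ier2 and Nr4a1 were the other genes with an unadjusted p under 0.05. Ier2 read 5.51, 5.08 and 5.52 in Gb5ko, against 4.78, 4.90 and 5.14 in Gb5wt. Gb5ko replicate 2 lay just below Gb5wt replicate 6, so the groups overlapped. The Ier2 difference was 0.43 ± 0.150 (SE; 95% interval 0.09 to 0.77; limma adjusted p = 0.272, unadjusted p = 0.019). Nr4a1, induced by activity in neurons and by hormones in the pituitary and adrenal glands, read 8.48, 8.31 and 8.81 in Gb5ko, against 8.10, 8.17 and 8.36 in Gb5wt. Here too the lowest Gb5ko array lay below the highest Gb5wt array. The Nr4a1 difference was 0.33 ± 0.143 (SE; 95% interval 0.0039 to 0.65; limma adjusted p = 0.341, unadjusted p = 0.0478). It ran from 0.19, without Gb5ko replicate 3, to 0.44, without Gb5ko replicate 2.

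Arc, whose product regulates AMPA receptor endocytosis and forms capsid-like particles, had the widest spread within groups of the 10 genes. It read 8.94, 8.61 and 9.68 in Gb5ko, against 8.89, 8.98 and 9.19 in Gb5wt. The Gb5ko group held both the highest and the lowest of the 6 arrays. The difference was 0.056 ± 0.237 (SE; 95% interval -0.48 to 0.59; limma adjusted p = 0.934). It took either sign with 1 array left out, at -0.25 without Gb5ko replicate 3, -0.0086 without Gb5wt replicate 4 and 0.29 without Gb5ko replicate 2.

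The level of the signal and the spread within groups differed widely among the genes. Group means lay near percentile 98.2 of all probe sets for Egr1, and between 29.4 and 49.1 for Fosb, Junb, Egr4 and Ier2. Probe sets differ in response, so these positions do not order the transcripts. Of the 4 genes with an unadjusted p under 0.05, Fosb, Egr4 and Ier2 had a mean below the lowest array median of 5.81, where RMA compresses differences, and Nr4a1 did not. The pooled SD within groups was 0.403 for Arc, at percentile 98.8 of all genes, 0.318 for Fosb (96.3), 0.296 for Egr2 (94.9) and 0.264 for Fos (91.5). It was 0.0938 for Junb, at percentile 23.1, and 0.122 for Egr1, at percentile 39.2. The other 4 genes lay at percentiles 87.8 (Egr3), 82.6 (Ier2), 77.5 (Nr4a1) and 63.9 (Egr4). Spread was thus above that of most genes for all but Junb and Egr1.

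Much of that spread ran along particular arrays. Within Gb5ko, replicate 3 was the highest array for 6 of the 10 genes (Fos, Egr1, Egr2, Arc, Ier2 and Nr4a1), whereas it was the highest for 26.5% of all genes. Within Gb5wt, replicate 6 was the highest for 8 of the 10 genes, all but Egr3 and Egr4, and for 29.3% of all genes. Averaged over the 10 genes, the centred log2 values were 0.014, 0.0021 and 0.26 in Gb5ko replicates 1 to 3 and -0.15, -0.18 and 0.047 in Gb5wt replicates 4 to 6. On this mean Gb5wt replicate 6 lay above Gb5ko replicates 1 and 2, so the groups overlapped.

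**Figure D3:**
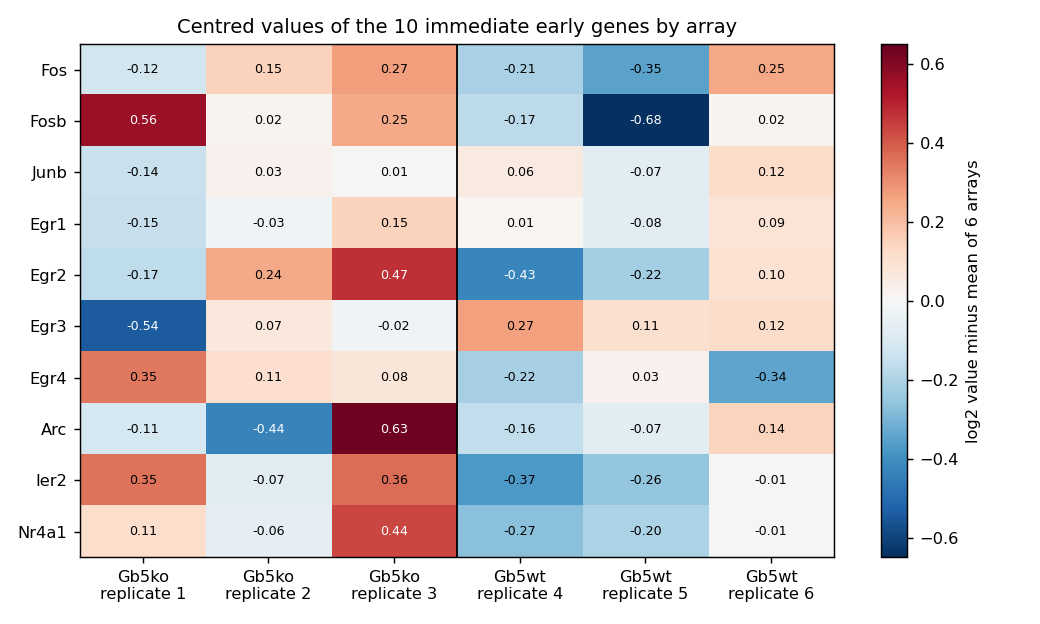
Log2 value minus the mean of the 6 arrays for each of the 10 genes, each by its brightest probe set, with Gb5ko arrays left of the black line and Gb5wt arrays right. Gb5ko replicate 3 holds the highest value of its group for 6 genes and Gb5wt replicate 6 for 8.

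The same 2 arrays had the highest mean of the pituitary markers in their groups. Single markers differed, since Gb5wt replicate 6 did not lead for Lhb or Fshb. Lhb read 3.78, 3.99 and 3.64 in Gb5wt replicates 4 to 6, and Fshb read 3.23, 2.86 and 2.86. The mean over 7 pituitary markers was 4.83, 4.28 and 6.90 in Gb5ko replicates 1 to 3 and 4.26, 4.37 and 4.99 in Gb5wt replicates 4 to 6, and the part of pituitary RNA in the immediate early gene values was not tested. All 7 markers had a positive difference, with 0 past the adjusted threshold. With both arrays left out, 2 of the 10 genes were higher at an unadjusted limma p under 0.05, and the median difference was 0.28. The log2 differences, Gb5ko minus Gb5wt, were then -0.16 for Arc, 0.27 for Nr4a1, 0.71 for Fosb, 0.45 for Ier2 and 0.32 for Egr4. With Gb5ko replicate 2 and Gb5wt replicate 4 left out, the arrays of highest Eif2s3y, the count was 2 and the median 0.22. The shares over all genes were not computed for these fits.

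**Figure D4:**
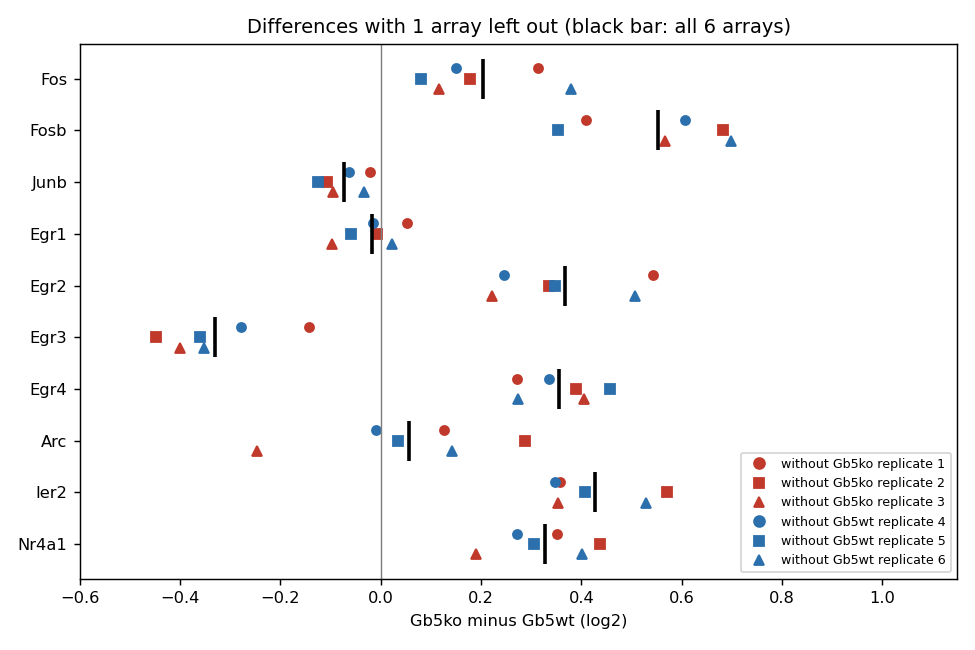
Difference of each gene, Gb5ko minus Gb5wt on the log2 scale, with each of the 6 arrays left out in turn, against the value over all 6 arrays (black bar). Arc spans -0.25 to 0.29 and Egr1 -0.098 to 0.053. Fos, Fosb, Egr2, Egr4, Ier2 and Nr4a1 stay above 0, and Junb and the brighter Egr3 probe set stay below 0.

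Of 52 other activity-regulated genes measured, 0 passed the adjusted threshold. At an unadjusted p under 0.05, 6 were higher (11.5%) and 2 lower (3.85%), shares near the 9.89% and 5.68% of all genes, and their median difference was -0.0096. Nptx2, a pentraxin that clusters AMPA receptors, read 9.13, 8.77 and 9.04 in Gb5ko, against 8.33, 8.64 and 8.58 in Gb5wt. Its groups did not overlap, and the difference was 0.47 ± 0.132 (SE; limma adjusted p = 0.233). Npas4, a neuron-specific activity-induced factor, was 0.38 higher on a dim probe set at 3.73 in Gb5ko and 3.35 in Gb5wt. The other genes that were higher at that level were the bZIP repressor Nfil3 (0.31), the clock gene Per1 (0.35), the pseudokinase Trib1 (0.26) and Inhba, an activin subunit gene (0.26), the last named only because it completes the count.

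The 2 lower genes were Lonrf3, at -0.52 ± 0.136 (SE; limma adjusted p = 0.216), and Tiparp, a mono-ADP-ribosyltransferase, at -0.31. Atf3, Cebpd and Homer1, which followed in order of p, differed by -0.27, -0.28 and -0.19. Of the 26 measured transcription factors and kinases that act upstream, 0 passed and 1 was lower at an unadjusted p under 0.05, the ribosomal S6 kinase Rps6ka3 (-0.33). The others with the smallest p on that side were the acetyltransferases Ep300 (-0.22) and Crebbp (-0.19), Creb1 (-0.20) and the Egr co-repressor Nab1 (-0.34). On the other side, Map2k2 differed by 0.34, the SRF cofactor Mrtfa by 0.28, Crtc2 by 0.16, Crtc1 by 0.15 and Mef2d by 0.076, with limma adjusted p values of 0.459 and above. For several of these, the value nearest 0 with 1 array left out in turn is given next, and only Crtc1 changed sign. Without Gb5ko replicate 1 the differences were 0.085 for Map2k2, 0.048 for Crtc2, -0.096 for Crtc1, -0.10 for Nab1, -0.087 for Creb1, -0.079 for Crebbp, -0.16 for Atf3 and -0.095 for Homer1. Without Gb5wt replicate 4 they were 0.093 for Mrtfa and -0.14 for Cebpd, and without Gb5ko replicate 3 that of Mef2d was 0.039.

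The mean centred pattern of the 10 genes was set beside every other gene with an SD over the 6 arrays of at least 0.3, which gave 1396 genes. The mean does not stand for all 10: against the mean of the other 9, Pearson r over the 6 arrays was 0.939 for Nr4a1, 0.808 for Egr2, 0.793 for Fos and 0.75 for Ier2, between 0.477 and 0.581 for Fosb, Egr1 and Arc, 0.052 for Junb, 0.038 for Egr4 and -0.449 for Egr3. Abcc10 followed the mean most closely, with a Pearson r of 0.983 over 6 arrays, followed by A930033H14Rik (0.963), Lrrc49 (0.94), Gm38910 (0.933) and C130026L21Rik (0.929). In all, 9 of the 1396 reached 0.9. The 6 points share their arrays with the genes compared, and a likeness over 6 points is only a description. On Abcc10 the arrays read 7.18, 7.11 and 7.67 in Gb5ko, against 6.81, 6.61 and 7.33 in Gb5wt, with replicates 3 and 6 highest in their groups. Abcc10 was chosen for its likeness to the mean, so this order is no separate observation.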

How the data were processed

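Total RNA from brain without cerebellum (3 Gb5ko and 3 Gb5wt samples) was labelled with biotin and hybridised to Affymetrix arrays, per the labels' protocols. The values the authors deposited are log2 expression per probe set, made with RMA and Partek per the submitters' processing notes. RMA corrects background, normalizes arrays to 1 distribution and compresses differences of dim probe sets. No detection calls were used. Of 45101 probe sets, 64 controls were left out and 45037 tested without a filter. The number of arrays limits the precision, with a median standard error of 0.123.

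Gb5ko minus Gb5wt was tested in limma 3.58.1 (lmFit, eBayes; R 4.3.3), two-sided, with Benjamini-Hochberg adjustment over all probe sets and a threshold of 0.05, after a test on simulated data. Genes were named from the platform annotation, 34945 probe sets having 1 gene, and each gene was read by its brightest probe set. The members and lists were chosen with earlier results of these data known, so counts are set beside the share over all genes and not tested as sets. The text names all members, up to 5 genes a direction with the smallest p from each of 2 lists, and the 5 genes most like the members. From the marker lists it names markers of largest range, and also further markers that this rule did not select. Alternatives were a filter on dim probe sets, 2 normalizations, array weights, eBayes with trend and robust settings, testing 1 probe set per gene, other readings of a gene, a looser threshold and leaving out arrays. Promoter windows came from RefSeq (GRCm38.p6). Figures used matplotlib 3.10.9.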

Additional observations from a re-analysis of the deposited data

How the results depend on the processing

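No paired analysis was run, because the sample titles number Gb5ko 1 to 3 and Gb5wt 4 to 6 without matching littermates across the groups. Any pairing of littermates was thus not used. Leaving out the arrays of highest Gh or Eif2s3y was chosen after the data were seen. In each of the alternatives run, 0 of the members' probe sets tested passed, also at an adjusted p under 0.1. The filter on dim probe sets left out Fosb and Junb, and testing 1 probe set per gene left out the dimmer ones of Egr2 and Egr3. The median difference stayed between 0.15 and 0.33. With 1 array left out, genes higher at an unadjusted p under 0.05 numbered 1 to 5 and lower ones 0 to 1. Among other activity-regulated genes they numbered 2 to 7 and 1 to 4, and among upstream genes 0 to 1 and 0 to 2. Trend and robust eBayes gave 1 lower member and 2 lower upstream genes. Without the arrays of highest Gh 2 members were higher, and without those of highest Eif2s3y 2 members and 1 other activity-regulated gene were. No share over all genes was computed for these alternatives, so their counts have none beside them.

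Signs turned for values that were not called. Egr1 read 0.000261 after a second quantile normalization, 0.018 with array weights and -0.098 to 0.053 with 1 array left out. Arc ran from -0.25 to 0.29 with 1 array left out and read -0.16 without the arrays of highest Gh. The dimmer Egr3 probe set ran from -0.24 to 0.010 and read 0.028 without those of highest Eif2s3y, and Crtc1 ran from -0.096 to 0.32. Gnb5 stayed between -5.75 and -5.41. Its dim second probe set, between -1.23 and -0.85, passed only without Gb5wt replicate 6. The causes of these changes were not tested, and leaving out an array also lowers the number of arrays. Whether dim probe sets stood above background was not tested, since no detection calls were used.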
